A study of Mus musculus with 28 samples.

Results

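Broad H3K4me3 domains are long stretches of chromatin in which histone H3 carries 3 methyl groups on lysine 4. This mark usually sits in a narrow peak at the start of an active gene. Long H3K4me3 domains are known from many tissues, where they lie over the starts of highly transcribed genes, and have been described at genes that define a cell type and at tumour suppressor genes. Here a domain was a run of bases covered by peaks in at least 3 of 4 H3K4me3 libraries on chromosomes 1 to 19, with gaps of up to 1 kb closed and a length of 4 kb or more. Runs that shared a base with H3K27me3 or H3K9me3 peaks found in at least 2 of 4 libraries were left out. Of 12337 H3K4me3 regions made in this way without a length bound, 517 reached 4 kb. After 38 were left out for H3K27me3 and 12 for H3K9me3, 467 domains were kept, which is 3.79% of all regions and 10.2% of their bases.

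The libraries came from mouse lung tumours and were made by chromatin immunoprecipitation and sequencing (ChIP-seq) for 6 histone marks, with 4 libraries each and 1 list of called peaks per library. All tumours carried K-RasLSL-G12D, an activated K-Ras allele held silent until Cre recombinase removes a stop cassette, and were induced with Ad-CMV-Cre, an adenovirus that carries Cre under a CMV promoter, which is active in many cell types. The second tumour type also carried Mll4fl/fl, floxed alleles of the gene for MLL4 (KMT2D), an enzyme known for placing the first methyl group on H3 lysine 4 at enhancers. The sample labels do not give the tumour type of a library. The names of the deposited files do carry the letters MLL (replicates 1 and 2 of every mark) or RAS (replicates 3 and 4), and the libraries are described here by these letters. Whether Mll4 was deleted in a library cannot be checked from peak lists and was not tested. Strain, age and pooling of animals are not given in the sources used here, and the labels do not say whether replicates are separate animals, so p-values measure the spread between these samples, which may be technical. Tumour tissue was used in bulk, so fewer cells that carry a mark and less of the mark per cell cannot be told apart. Peak lists give no read counts, and sequencing depth is unknown.

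The other marks have known roles. H3K27ac is found at active promoters and enhancers, H3K4me1 at enhancers and on the shoulders of promoters, and H3K79me2 is laid down along the first part of transcribed genes. H3K27me3 and H3K9me3 mark repressed chromatin. No gene annotation of mm9, the build of the peak lists, was used, so domains are named by position, genes and lung markers are not analysed here, and no sequence is printed.

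Some libraries stand apart from the others of their mark. H3K4me3 replicate 1 had 3.12 Mb under peaks on chromosomes 1 to 19, against 26.4 to 32.3 Mb in the other 3. The H3K27ac lists differed in shape, with median peak widths of 234 and 216 bp in the MLL libraries and 2064 and 1713 bp in the RAS libraries. In H3K27ac replicate 2, 77.9% to 89.3% of the bases under peaks also lay under H3K79me2 peaks of each of the 4 libraries of that mark, against 28.2% to 46.6% for the other H3K27ac libraries. Only 44.2% of its bases lay in H3K27ac peaks of replicate 3, while for replicate 1 this was 92.5%. The H3K27ac counts and differences below that rest on replicate 2 are therefore also given without it, and other H3K27ac values are given by library or as a range whose ends replicate 2 does not set. Whether that library was mixed or mislabelled was not tested.

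The domains were mostly just longer than the bound. Their lengths ran from 4000 to 13802 bp with a median of 4841 bp, and the middle 50% lay between 4318 and 5553 bp. There were 267 domains under 5 kb, 72 of 6 kb or longer, 17 of 8 kb or longer and 5 of 10 kb or longer. The 3 shortest had 4000, 4004 and 4005 bp, and the 3 regions just too short had 3998, 3994 and 3994 bp. Lengths thus ran on without a break across the bound. H3K27ac in replicates 3 and 4 covered 45.5% to 100% of the 3 shortest domains and 95.8% to 100% of the 3 regions just below the bound.

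The domains were chosen by their H3K4me3 peaks, with H3K27me3 and H3K9me3 peaks used to leave regions out, so the values of these 3 marks are a description. Replicates 2, 3 and 4 covered 98.8%, 94.0% and 98.9% of a domain's bases on average. Replicate 1 covered 16.3%, had no peak in 63 of the 467 domains, and covered at least 50% of the bases in 6. In this sparse library few bases could count toward the 3 of 4, so the rule rests almost wholly on replicates 2, 3 and 4. Made from those 3 libraries alone, with a base covered in all of them, the rule gave 455 domains.

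A single unbroken peak filled most domains in replicates 2 and 4, but not in replicate 3. In replicate 2, 386 domains (82.7%) held exactly 1 peak, and in replicate 4 358 (76.7%) did. In replicate 3 the median was 3 peaks per domain and only 53 domains (11.3%) held a single one. Taken on its own with the same gap closed, the replicate 2 list gave a region of 4 kb or more at 463 domains, replicate 3 at 462, replicate 4 at 467 and replicate 1 at 15. The domain's own region had a median length of 5469, 5276 and 5847 bp in replicates 2, 3 and 4 and of 872 bp in replicate 1, with domains without a peak counted as 0 bp. Where replicate 1 did have a peak, its best peak scored higher in the domains (median 145.5 in the authors' score) than in ordinary regions (80.7). The best is taken over all peaks of a region, and domains are longer (median 4841 bp against 1878 bp). The rule also used this mark, so the comparison is a description only.

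Domains were spread over all 19 chromosomes and mostly stood alone. Chromosome 11 held the most, 44, and chromosome 14 the fewest, 10. As a share of H3K4me3 regions of at least 1 kb that passed the same exclusion, they made up 4.93% over all chromosomes, from 2.95% on chromosome 2 to 7.67% on chromosome 19. The median distance to the nearest other domain was 1158805 bp. There were 43 domains within 100 kb of another one, and the closest pair lay 6185 bp apart. Only 50 domains (10.7%) had another H3K4me3 region of any length within 5 kb.

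H3K27ac was the mark most often found in the domains. It had a peak in at least 3 of 4 libraries at 461 of 467 domains (98.7%), against 67.8% of all 12337 regions and 80.6% of the 9015 ordinary regions, which were made by the same rule but are 1 kb to under 4 kb long. Without replicate 2, 453 domains had a peak in all 3 others, against 65.6% of all regions and 78.0% of ordinary ones. No domain was without H3K27ac in all 4 libraries. A long region can meet a peak more easily than a short one, so the marks were then compared by the share of bases covered.

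The H3K27ac share differed far more between libraries than between domains and ordinary regions. In replicates 1 to 4 the domains were covered to 42.8%, 31.98%, 91.6% and 88.1% on average, and the ordinary regions to 30.6%, 12.0%, 91.7% and 83.2%. The difference was 9.24 ± 8.77 percentage points (SD, n = 4, exact two-sided sign-flip p = 0.25, adjusted 0.389), positive in 3 of 4 libraries. With bases covered in 4 of 4 H3K4me3 libraries, which left 14 domains, it was 1.765 points and positive in 1 of 4, and without replicate 2 as well it was -2.09 points. With the rule as described, the difference was -0.12 points in replicate 3 and 4.88 in replicate 4. Without replicate 2 the difference was 5.66 points. With 4 libraries the smallest p of this test is 0.125, so none of the comparisons with ordinary regions could pass 0.05.

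**Figure D1:**
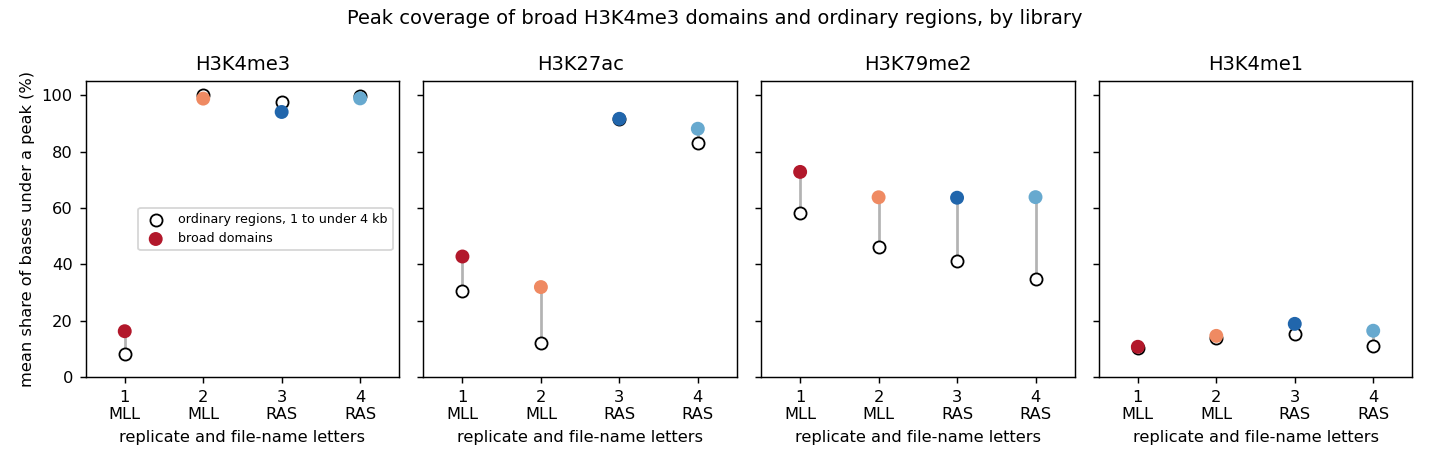
Mean share of bases under a peak (y axis, percent) in each library (x axis, replicate and file-name letters) for 467 broad domains (filled points) and 9015 ordinary H3K4me3 regions (open points), 1 panel per mark. H3K79me2 points of the domains lie above the open points in all 4 libraries, by 14.5 to 28.9 percentage points, while H3K27ac differs mainly between replicates 1 and 2 and replicates 3 and 4.

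H3K79me2 had the largest mean gap between domains and ordinary regions over the 4 libraries. In replicate 1 the gap was 14.5 points against 12.2 for H3K27ac, and in replicate 2 it was 17.8 against 19.98. In the RAS libraries, replicates 3 and 4, it was 22.5 and 28.9 points against -0.12 and 4.88. H3K79me2 covered 72.8%, 63.8%, 63.6% and 63.8% of the domains in replicates 1 to 4, and 58.3%, 46.0%, 41.2% and 34.9% of the ordinary regions. The domains were the more covered in 4 of 4 libraries, by 20.9 ± 6.26 percentage points (SD, n = 4, exact two-sided sign-flip p = 0.125, the smallest possible, adjusted 0.292). With bases covered in 4 of 4 H3K4me3 libraries, which left 14 domains, the gap was 2.98 points and positive in 3 of 4 (exact p = 0.625, adjusted 0.875). A peak of this mark was present in at least 3 of 4 libraries at 418 domains (89.5%), where 52.3% of all regions and 64.5% of ordinary regions had one. It covered 50% or more of the bases in all 4 libraries at 271 domains (58.0%) and at 31.1% of ordinary regions. At 9 domains (1.93%) no library had a peak of this mark, against 20.0% of ordinary regions.

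H3K4me1 covered little of the domains. The shares were 10.8%, 14.7%, 18.9% and 16.5% in replicates 1 to 4, with 10.25%, 13.8%, 15.2% and 10.9% in ordinary regions. The difference was 2.68 ± 2.40 percentage points (SD, n = 4, exact two-sided sign-flip p = 0.125, adjusted 0.292) and positive in 4 of 4 libraries. With no gap closed it was -0.87 points, and with a base covered in 4 of 4 H3K4me3 libraries -4.12 points. Without replicate 4 it was 1.71 points. Peaks were nevertheless common, in at least 3 of 4 libraries at 327 domains (70.02%), against 42.3% of all regions and 48.4% of ordinary ones. No domain was covered to 75% by H3K4me1 in all 4 libraries, and 2 (0.428%) were covered to 50%, close to the 0.0111% and 0.277% of ordinary regions.

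The gain from ordinary regions to domains was compared between the mark of transcribed genes and the mark of enhancers. It was 18.2 percentage points larger for H3K79me2 than for H3K4me1, and it was larger in 16 of 16 pairings of an H3K79me2 with an H3K4me1 library. As a ratio of domain to ordinary coverage it was larger in 14 of 16, with means of 1.502 and 1.218. The exact two-sided permutation p of the difference in percentage points over 70 splits was 0.0286, the smallest possible. After adjustment over 7 tests it was 0.2, so this difference did not pass 0.05 and could not have passed it. With each library number kept together as a pair (replicate block), the exact sign-flip p was 0.125 and the adjusted p 0.292. With bases covered in 4 of 4 H3K4me3 libraries the difference was 7.10 points, in 12 of 16 pairings (exact permutation p = 0.257, adjusted 0.583).

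Most domains carried all 3 of these marks. H3K27ac, H3K79me2 and H3K4me1 were each present in at least 3 of 4 libraries at 305 domains (65.3%), and at 38.5% of ordinary regions. With H3K27ac taken from replicates 1, 3 and 4 this was 300 domains (64.2%), 36.8% of ordinary regions and 29.65% of all 12337 regions. A further 111 domains (23.8%) had H3K27ac and H3K79me2, 20 (4.28%) had H3K27ac and H3K4me1, and 25 (5.35%) had H3K27ac alone. The shares in ordinary regions were 20.2%, 4.74% and 17.2%, so only the last was far from that of the domains. With H3K27ac taken from replicates 1, 3 and 4 the counts were 110, 19 and 24 domains, and 19.55%, 4.725% and 16.96% of ordinary regions. Only 3 domains had none of the 3 marks by this count, or 0.642%, against 11.3% of ordinary regions, and without H3K27ac replicate 2 this was 4 domains and 11.6%. All these counts take any overlap with a peak, which a longer region meets more easily. The median length was 4841 bp in domains and 1878 bp in ordinary regions, and the part of length was not tested.

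**Figure D2:**
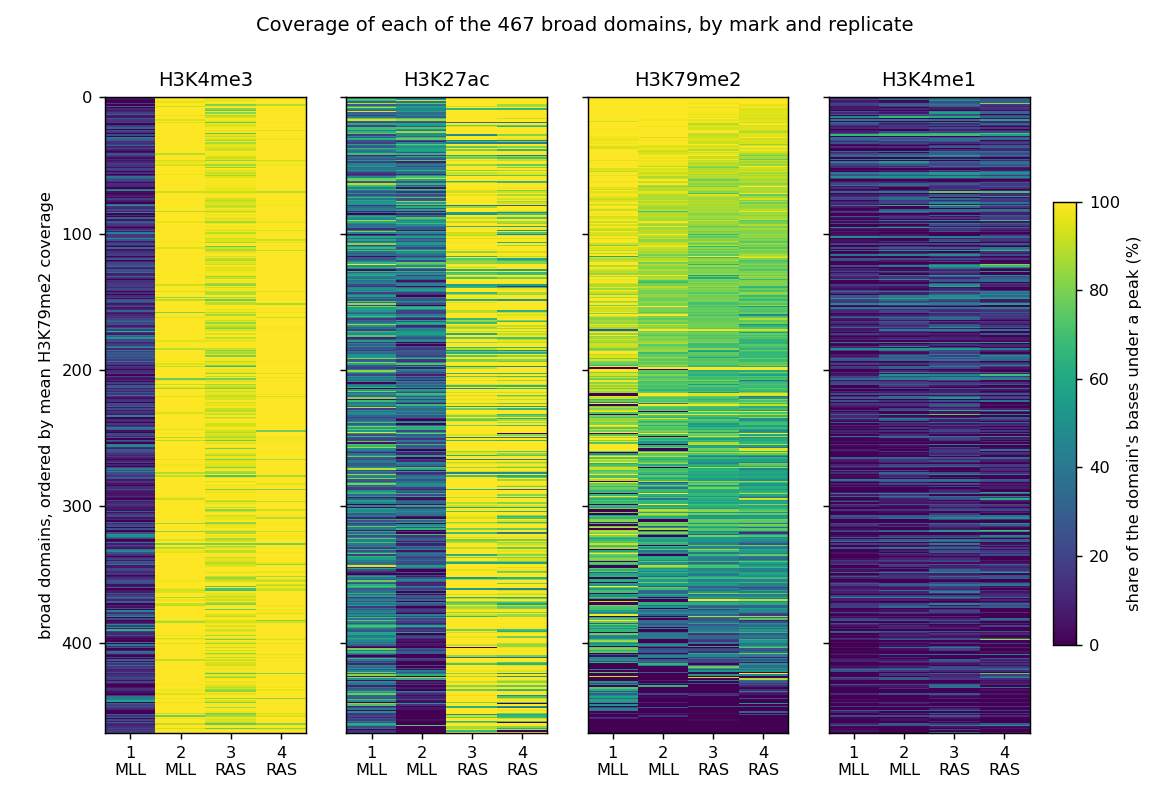
Share of each domain's bases under a peak (colour, percent) for 4 marks, with domains stacked in order of mean H3K79me2 coverage and 1 column per replicate with its file-name letters. H3K4me3 is low in replicate 1 in nearly every domain, H3K27ac is higher in replicates 3 and 4 than in replicates 1 and 2, and H3K79me2 had no peak in 55, 67, 39 and 28 domains in replicates 1 to 4. H3K79me2 was absent from 2492, 2884, 2953 and 3415 of the 9015 ordinary regions.

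The domains varied widely in H3K79me2 within 1 library. In replicate 1 the middle 50% of the domains lay between 63.3% and 97.8%, and in replicate 4 between 49.2% and 83.8%. Full coverage was reached by 100 domains in replicate 1, 44 in replicate 2, 13 in replicate 3 and 16 in replicate 4. Coverage of 90% or more was reached by 43.0%, 21.0%, 14.1% and 14.6% of domains. In ordinary regions this was 33.9%, 16.5%, 8.74% and 5.27%. At the other end 55, 67, 39 and 28 domains had no base covered. A peak was present in 88.2%, 85.65%, 91.65% and 94.0% of domains in replicates 1 to 4. In ordinary regions it was present in 72.4%, 68.0%, 67.2% and 62.1%, so absence was rarer in domains.

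Some domains without H3K79me2 in an MLL library were well covered in all the others. Of 299 domains covered to at least 50% in replicates 2, 3 and 4, 23 (7.69%) had no peak at all in replicate 1. Of 292 covered to at least 50% in replicates 1, 3 and 4, 15 (5.14%) had none in replicate 2. The same count was 0 of 275 for replicate 3 and 0 of 291 for replicate 4. In ordinary regions it was 3.45%, 3.08%, 0.907% and 3.49% for replicates 1 to 4, so there it was not limited to the MLL libraries. Among the 15 were 2 of the 5 domains of 10 kb or longer, both on chromosome 18.

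The surroundings of these domains also had little of the mark in the library for which they were chosen as lacking it. H3K79me2 regions often run past an edge, so the values around the domains are not independent of that choice. In the 10 kb on either side of the 23 domains, H3K79me2 covered 2.215% of bases in replicate 1 and 62.6%, 59.8% and 57.1% in replicates 2, 3 and 4. Around the 15 domains it covered 1.63% in replicate 2 and 51.65%, 48.4% and 46.4% in replicates 1, 3 and 4. The H3K79me2 regions at these domains were long in replicate 3, with medians of 49094 bp at the 23 and 37944 bp at the 15. At the rest of the 299 and of the 292 domains the replicate 3 medians were 11473 and 11395 bp.

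The inside of a domain differed from its rim. Rim here means the last 500 bp before an edge, and inner part the stretch from 1500 to 2000 bp inside it. H3K4me1 covered 18.5%, 24.35%, 32.4% and 27.4% of the rim in replicates 1 to 4, and 6.43%, 9.26%, 12.9% and 12.0% of the inner part. The rim was thus the more covered in 4 of 4 libraries, by a factor of 2.29 to 2.88. H3K79me2 went the other way, with 54.9% ± 5.02 in the rim and 72.2% ± 3.77 in the inner part (SD, n = 4), and so did H3K27ac, with a rim minus inner difference of -19.9 to -9.37 percentage points. The same H3K4me1 rim was seen in the 3865 ordinary regions of 2 kb or longer, where the last 500 bp exceeded the next 500 bp by 10.75 to 15.85 points. H3K27ac and H3K79me2 were lower in the last 500 bp of those regions too, so none of the 3 patterns was limited to the domains.

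**Figure D3:**
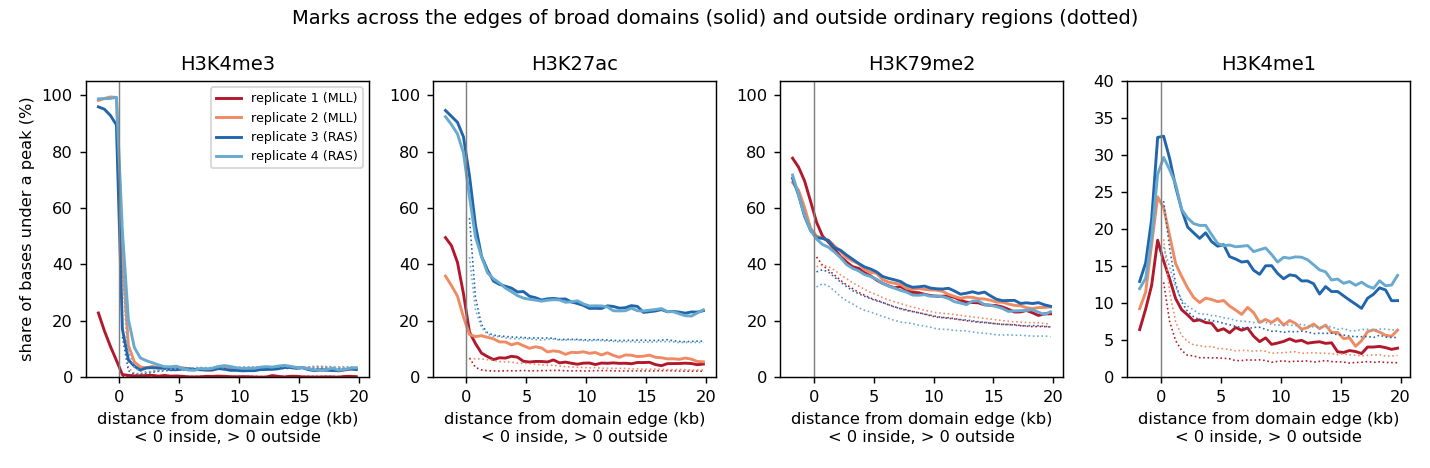
Share of bases under a peak (y axis, percent, with a scale of its own for H3K4me1) in 500 bp bins by distance from a domain edge (x axis, kb, both edges pooled, inside below 0), 1 solid line per library and a dotted line for the outside of ordinary regions. H3K4me1 peaks at the edge in all 4 libraries, H3K79me2 falls slowly over 20 kb, and solid lines lie above dotted ones outside the edge for H3K27ac, H3K79me2 and H3K4me1.

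Outside the edges, active marks were denser around domains than around ordinary regions. From 10 to 20 kb out, H3K4me1 covered 4.22%, 6.202%, 11.7% and 13.9% of bases around domains in replicates 1 to 4, and 2.09%, 3.13%, 5.76% and 6.66% around ordinary regions. H3K27ac covered 4.87%, 7.25%, 23.97% and 23.7% there, against 2.27%, 2.93%, 13.05% and 12.6%. H3K79me2 covered 26.5% ± 1.51 around domains and 18.7% ± 2.20 around ordinary regions (SD, n = 4). H3K4me3 was lower around domains at that distance in 4 of 4 libraries, with 2.31% ± 1.42 against 2.64% ± 1.603 (SD, n = 4). H3K27me3 was lower around domains than around ordinary regions in all 4 libraries at 10 to 20 kb, with 0.802% ± 0.942 and 2.18% ± 1.94 (SD, n = 4). H3K9me3 was lower around domains in replicates 1, 2 and 3, with 0.250%, 0.162% and 0.0646% against 0.621%, 0.461% and 0.292%. In replicate 4 it was higher, with 1.11% against 0.830%. These differences were not tested.

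H3K79me2 passed 1 edge only in the larger share of domains. Its own region, with gaps of up to 1 kb closed, passed 1 edge by 2 kb or more and not the other at 58.1% ± 2.01 of all domains (SD, n = 4), both edges at 11.3% ± 1.37 and neither at 20.45% ± 3.90. In ordinary regions these shares were 50.1% ± 4.76, 4.07% ± 1.19 and 13.3% ± 2.97 (SD, n = 4), with more regions that lack the mark. Among regions that carry it, exit on 1 side was less frequent in domains, with 65.8%, 65.0%, 66.1% and 61.96% in replicates 1 to 4 against 73.1%, 78.96%, 75.2% and 69.6%. Exit on both sides was more frequent in the domains that carry it, with 13.1%, 15.25%, 11.7% and 10.5% against 6.95%, 7.19%, 5.82% and 3.95%. Both directions held in 4 of 4 libraries and were not tested. In domains with the mark, the reach on the longer side had a median of 7585, 8420, 8606 and 6177 bp in replicates 1 to 4. In ordinary regions with the mark it was 6307, 7557, 6496 and 4769.5 bp. The median on the shorter side was 0 bp in each library for both kinds of region. The longest reach was 148922 bp in domains, in replicate 1, and 202116 bp in ordinary regions, in replicate 2.

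H3K27ac ran beyond the region at more places in the RAS libraries than in the MLL libraries, in domains and in ordinary regions alike. Its region passed at least 1 edge by 2 kb or more at 54, 131, 257 and 249 domains in replicates 1 to 4. These are 11.6%, 28.05%, 55.03% and 53.3% of the domains, against 3.03%, 9.56%, 23.3% and 22.5% of ordinary regions. The MLL lists have the narrower peaks, and the part of peak width was not tested.

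Coverage was then followed over the length of the region. H3K79me2 covered 36.1% of regions of 1 to 2 kb, 56.2% of 2 to 3 kb and 60.8% of 3 to 4 kb (means of 4 libraries). Within the domains it was 64.5% at 4 to 5 kb (267 domains), 68.6% at 5 to 6 kb (128), 66.6% at 6 to 8 kb (55) and 68.05% at 8 kb or more (17). The widest step was thus among ordinary regions, from 1 to 2 kb to 2 to 3 kb. From 4 to 5 kb to 5 to 6 kb the share was higher in 4 of 4 libraries, going from 72.65% to 72.8%, from 62.1% to 68.5%, from 61.5% to 67.01% and from 61.8% to 66.15% in replicates 1 to 4. From there to 6 to 8 kb it was lower in replicates 1, 2 and 3 and higher in replicate 4. H3K27ac went from 27.3% at 1 to 2 kb to 50.3% at 8 kb or more in replicate 1 and from 7.35% to 44.3% in replicate 2, the library that stands apart. In replicate 3 it was between 90.01% and 97.7% in all classes, and in replicate 4 it went from 79.3% to 96.2%. H3K4me1 was 15.1%, 15.7% and 16.4% in the first 3 classes of domains and 10.1% in the 17 longest, a class too small to carry a trend.

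**Figure D4:**
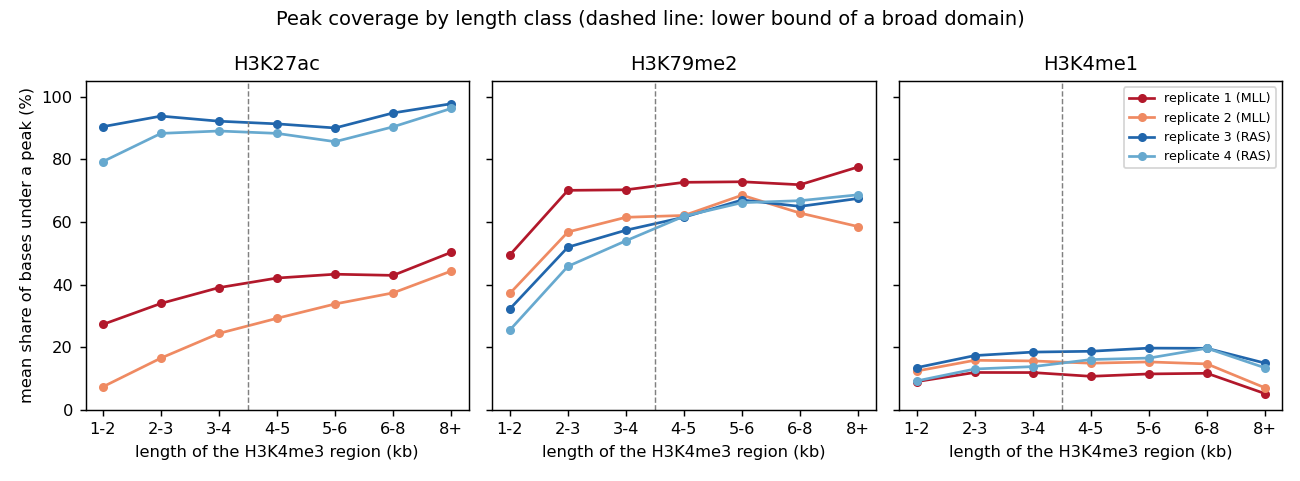
Mean share of bases under a peak (y axis, percent) by length class of the H3K4me3 region (x axis, kb), 1 line per library and 1 panel per mark, with the bound of 4 kb dashed. H3K79me2 rises from 36.1% at 1 to 2 kb to 64.5% at 4 to 5 kb as a mean of 4 libraries, and H3K27ac in replicates 3 and 4 lies above 79% in every class.

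The file-name letters separated the libraries most clearly for H3K27ac. MLL libraries covered 42.8% and 31.98% of domain bases and RAS libraries 91.6% and 88.1%, a difference of -52.5 percentage points (2 against 2, exact two-sided permutation p = 0.333, the smallest possible, adjusted 0.389). Without replicate 2 it was -47.0 points. At 458 of 467 domains (98.1%) both MLL values were below both RAS values, and at 0 above. The background over all 12337 regions was 78.5% below and 0.0243% above, and 91.8% of ordinary regions were below. With the same number of best-scored peaks per library, 461 domains were below (background 77.8%) and 0 above (background 0.0162%). Without replicate 2, replicate 1 was below both RAS values at 462 domains (background 78.7%) and above at 0 (background 0.543%). With equal numbers of peaks as well, these counts were 462 (background 77.9%) and 0 (background 0.300%). The lists differ in the same way over the whole genome, with 19.9 and 22.1 Mb under MLL peaks and 114.5 and 112.4 Mb under RAS peaks, and the part of this in the result was not tested. The gain from ordinary regions to domains was 13.7 points larger in the MLL libraries, and 9.82 without replicate 2. By library the gain was 12.2 and 19.98 points in the MLL libraries and -0.12 and 4.88 points in the RAS libraries. RAS coverage was already 91.7% and 83.2% in ordinary regions, and the part of this in the sign was not tested.

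H3K79me2 differed little by these letters, and whether the groups overlapped depended on the processing. The MLL values, 72.8% and 63.8%, and the RAS values, 63.6% and 63.8%, overlapped by a narrow margin, 63.80% against 63.85% (difference 4.55 points, exact two-sided permutation p = 0.667, adjusted 0.667). Replicate 1 decided the size, since without it the difference was 0.061 points, and without replicate 2 it was 9.045. Single domains were more often higher than lower in both MLL libraries, 235 (50.3%, background 34.3%) against 17 (3.64%, background 1.51%), and 42.7% of ordinary regions were higher too. With equal numbers of peaks the shares were 72.8%, 63.8%, 61.99% and 60.6% in replicates 1 to 4 and no longer overlapped, a difference of 6.99 points (exact permutation p = 0.333, the smallest possible). They did not overlap either with a bound of 3000 bp (8.16 points), gaps of up to 2 kb closed (5.08), 2 of 4 H3K4me3 libraries (5.76) or no exclusion (5.22). The groups overlapped, with smaller differences, with a bound of 6000 bp (1.12 points), no gap closed (1.225), scores at or above the median (3.145) and when only the central 1 kb was scored (0.964). With bases covered in 4 of 4 H3K4me3 libraries they overlapped and the difference was -3.27 points. With equal numbers of peaks 242 were higher (background 35.3%) and 13 lower (background 1.06%). The gain from ordinary regions to domains was smaller in the MLL libraries, 14.5 and 17.8 points, than in the RAS libraries, 22.5 and 28.9 points. That difference of -9.56 points had the smallest possible exact permutation p of 0.333, and the ordinary regions fell in the same order of libraries, from 58.3% to 34.9%.

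H3K4me1, the mark laid down by MLL4, covered less of the domains in both MLL libraries than in both RAS libraries. They covered 10.8% and 14.7% of domain bases, and the RAS libraries 18.9% and 16.5%, with no overlap (difference -4.97 points, exact two-sided permutation p = 0.333, adjusted 0.389). With a bound of 3000 bp the groups overlapped, with a difference of -3.30 points (exact p = 0.667). Of the domains 130 (27.8%, background 12.0%) were lower in both MLL libraries and 35 higher (background 9.65%). The MLL lists also covered less of the genome, 15.5 and 24.9 Mb against 46.8 and 55.6 Mb. When each list was reduced to the same number of best-scored peaks, the domains were covered to 10.8%, 12.7%, 15.5% and 13.0% in replicates 1 to 4. The counts were then 84 lower (18.0%, background 6.77%) and 67 higher (background 12.2%). The MLL values still lay below the RAS values with equal numbers of peaks, by -2.47 points on average. With peaks scored at or above the median, which gave 394 domains, 84 were lower (background 7.87%) and 22 higher (background 5.16%), and the difference was -4.15 points. Without replicate 1 the difference over all peaks was -3.04.

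H3K27me3 and H3K9me3 covered little of the domains on average. The rule left out only regions with bases covered in at least 2 of 4 libraries, so peaks of a single library could remain. Among the domains 393 had no peak of either mark in any library, and 74 (15.8%) had one in some library. H3K9me3 replicate 4 touched 52 domains (11.1%, against 2.385% of ordinary regions), and H3K27me3 replicate 3 touched 16 (3.43%, against 4.02%). The other libraries of these marks touched 0 to 3 domains each. H3K27me3 replicate 3 covered at least 50% of the bases of 9 domains. It covered at least 90% of 3 (0.642%, against 1.13% of ordinary regions).

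The longest domains show how far single loci differ from the averages. The longest, on chromosome 14 from 22801223 to 22815024 (13802 bp), was covered by H3K27ac to 55.75%, 47.7%, 100% and 96.3% in replicates 1 to 4 and by H3K79me2 to 87.55%, 82.6%, 78.3% and 66.0%. H3K4me1 reached at most 2.76% of it, in replicate 4. The domain on chromosome 18 from 11048116 to 11059883 (11768 bp) had H3K79me2 over 98.8%, 0%, 92.1% and 96.55% in replicates 1 to 4. It is 1 of the 15 domains without this mark in replicate 2. The domain on chromosome 5 from 143573565 to 143585198 (11634 bp) was the next, with the most H3K27ac in replicate 1 among the 10, 75.6%.

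Another domain on chromosome 5, from 53439263 to 53449858 (10596 bp), had no H3K4me1 peak in any library and no H3K4me3 peak in replicate 1, while H3K79me2 covered 61.7%, 84.8%, 43.7% and 78.7%. By contrast, the domain on chromosome 18 from 75525926 to 75536050 (10125 bp) had H3K4me1 over 12.8%, 20.5%, 44.5% and 33.3% and was covered by H3K4me3 to 40.3% in replicate 1, the highest of the 10. H3K79me2 was at 100%, 0%, 89.6% and 89.1% there. Both domains were fully or almost fully covered by H3K27ac in replicates 3 and 4, with at least 95.3%.

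The other 5 lay between 8586 and 9909 bp. They were on chromosome 17 from 34251430 to 34261338, chromosome 11 from 120090988 to 120100483, chromosome 5 from 123586285 to 123595379, chromosome 8 from 11001234 to 11010058 and chromosome 19 from 44474447 to 44483032. The domain on chromosome 17 had the least H3K27ac of the 10 in the RAS libraries, 78.7% and 69.1%. In the domain on chromosome 19, H3K4me1 was at 0% in both MLL libraries and at 24.1% and 45.7% in the RAS libraries. All 10 had H3K27ac in all 4 libraries, with both RAS values above both MLL values in 10 of 10.

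**Figure D5:**
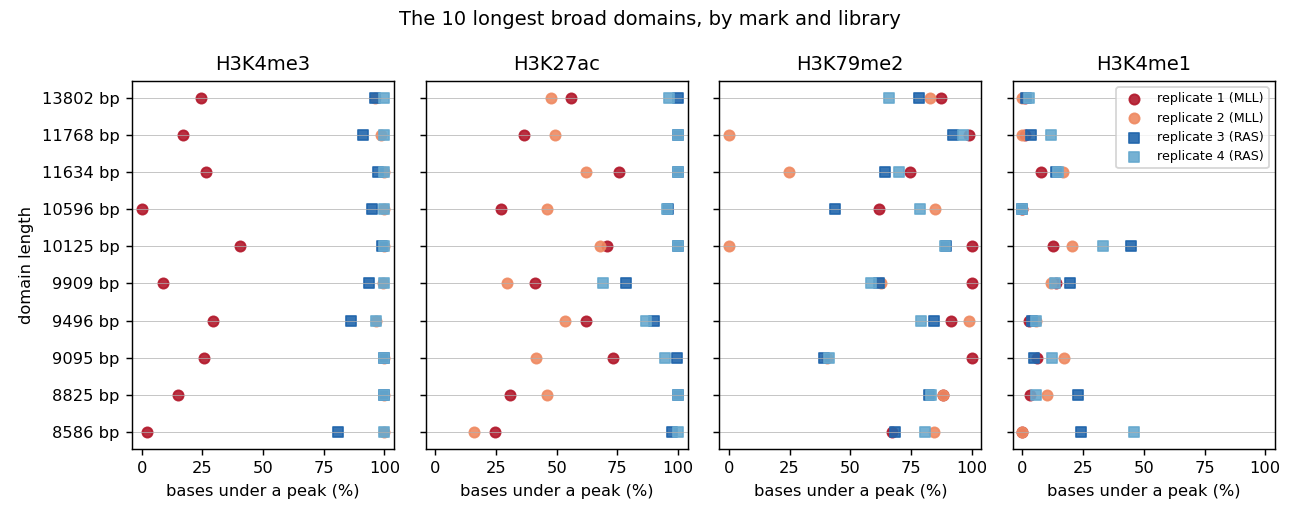
Share of bases under a peak (x axis, percent) in the 10 longest domains (y axis, labelled by length) for 4 marks, with circles for MLL libraries and squares for RAS libraries. H3K27ac squares lie to the right of the circles in all 10, an order found at 98.1% of all domains. H3K79me2 in replicate 2 is at 0 in the domains of 11768 and 10125 bp.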

How the data were processed

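The authors deposited 1 list of peaks per library, with the positions and a score for each peak. CASAVA 1.7, Bowtie, MACS, deepTools and the mm9 build are named in the submitters' processing notes, and settings are not given in the sources used here. The lowest score is 50, and the deposited score was read from its values as -10 times log10 of a p-value. Peaks were called per library, not on pooled samples. The 4 input samples were not used here. Positions are 1-based.

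For each region the share of bases under peaks was computed with Python 3.11.15 and numpy 2.4.6, averaged over regions and compared over libraries. Libraries, not regions, were the replicates. Exact sign-flip tests compared domains with ordinary regions (16 patterns), and exact permutation tests compared libraries (6 or 70 splits), with Benjamini-Hochberg adjustment over 7 tests. The code was tested on simulated data. Named domains are the 10 longest and the 3 on either side of the bound, other domains being chosen after their values were seen. Domains, lists and comparisons were chosen with earlier results of these data known. Alternatives changed the length bound, gap, number of H3K4me3 libraries, score, number of peaks, reference regions, exclusion and replicates used. H3K27ac counts without replicate 2, reach among regions with the mark and the ratio scale were added after seeing the data.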

Additional observations from a re-analysis of the deposited data

Results flagged for a closer look

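In 9 of 18 sets of 4 libraries, 1 library lay far from the other 3. Chance marks about 1 in 20 independent sets, but these sets are 3 related quantities of 6 marks and 8 of the 9 concern marks used to choose the domains, so the count itself supports nothing. H3K4me3 replicate 1 covered 16.3% of domain bases against 94.0% to 98.9% in the others, and had a peak in 86.5% of the domains against 100%. H3K79me2 replicate 1 covered 72.8%, while the other 3 lay between 63.6% and 63.8%.

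H3K27me3 replicate 3 covered 1.705% of domain bases, against 0.021% to 0.062% in the others, and had a peak in 3.43% of the domains. It covered less of the domains than of ordinary regions, with a difference of -0.61 percentage points. Its list also covers the most of the genome among its mark, 102.3 Mb against 10.8 to 32.4 Mb.

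H3K9me3 replicate 4 covered 1.055% of domain bases, against 0% to 0.01% in the others, had a peak in 11.1% of the domains, and covered more of the domains than of ordinary regions by 0.69 points. The 52 domains with such a peak carried more H3K4me1 than the other 415, with 23.8%, 31.3%, 38.4% and 40.2% in replicates 1 to 4 against 9.19%, 12.6%, 16.5% and 13.5%. H3K79me2 was higher in the 52 as well, with 82.4%, 74.9%, 73.4% and 73.4% against 71.6%, 62.4%, 62.4% and 62.65%. Its list covers 5.88 Mb, close to the 5.76 Mb of replicate 1, which touched 0 domains.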

How the results depend on the processing

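Each of the 7 tests was repeated under 16 or 17 alternatives, 113 values in all. The direction was kept in 108, and none gave an adjusted p under 0.05 (smallest 0.2). With so few libraries and adjustment over 7 tests none could have done so, and nothing is concluded from it. Of the 5 reversals, H3K4me1 in domains minus ordinary regions became -0.87 percentage points with no gap closed and -4.12 with bases covered in 4 of 4 H3K4me3 libraries. With the latter, which left 14 domains, the differences from ordinary regions were 1.765 for H3K27ac and 2.98 for H3K79me2, the gain difference was 7.10, and H3K79me2 in MLL minus RAS became -3.27. Without H3K27ac replicate 2 as well, the H3K27ac difference became -2.09. On the scale of domains minus ordinary regions, MLL minus RAS became 13.7 for H3K27ac and -9.56 for H3K79me2. The number of domains was 1293 with a bound of 3000 bp, 72 with 6000 bp, 192 with no gap closed, 815 with 2 of 4 H3K4me3 libraries and 14 with 4 of 4. It was 455 from replicates 2 to 4 alone, chosen after seeing the data. H3K4me1 was lower in both MLL libraries at 130 domains and higher at 35, which became 84 and 67 of 467 domains with equal numbers of peaks and 84 and 22 of 394 domains with scores at or above the median. With the replicate block, pairing libraries by number, the gain of H3K79me2 over H3K4me1 was 18.2 points (exact p = 0.125, adjusted 0.292). Depth is unknown, so absence of a peak does not show absence of a mark.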
